A study of Homo sapiens with 6 samples.

Results

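The zinc finger genes of 19q13.41-q13.42 are a tandem array of related genes on the long arm of human chromosome 19. The list holds 38 genes, selected by gene symbol and position, and was proposed with the comparison of PAX2-depleted and control cells already known. A row was present for 37 of the 38 among the 17471 genes of the expression table; ZNF677 was not analysed here. The genes span 2009 kb, from chr19:52074536 to chr19:54083523 in GRCh37 coordinates, with 17 on the plus strand and 21 on the minus strand. RNA-seq was performed on AN3CA cells, a human line derived from endometrial cancer and expressing PAX2, a paired-domain transcription factor of Müllerian duct epithelium. The 3 shEV libraries are labelled as cells with the empty vector (EV), although the paper elsewhere calls the AN3CA control scrambled, and the 3 shPAX2 libraries came from cells with a hairpin against PAX2. Both groups were transduced, selected with puromycin and grown in MEM with fetal bovine serum, and the labels give their genotype as WT. The labels name a single cell line and the methods a single hairpin, so PAX2 loss and any other action of that hairpin cannot be told apart, and separate cultures are not stated, so p-values measure only the spread between these libraries.

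KRAB zinc finger proteins are the largest family of transcription factors in the human genome. An array of C2H2 zinc fingers at the C-terminal end reads the DNA sequence, and the KRAB domain at the other end recruits the corepressor TRIM28 (KAP1), which brings the histone methyltransferase SETDB1 and leads to trimethylation of histone H3 at lysine 9. Many members of the family bind transposable elements and keep them silent, and the genes have multiplied by tandem duplication, most of all on chromosome 19.

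The 38 proteins, translated from the longest coding transcript of each gene in GENCODE 44, carried between 7 fingers (ZNF577, ZNF766 and ZNF701) and 26 fingers (ZNF845), with a median of 13. A KRAB A box was found in 37 of the 38, the exception being ZNF83. Some proteins were close copies of each other. ZNF28 and ZNF468 shared 91.2% of aligned residues, ZNF611 and ZNF600 shared 89.1%, and ZNF841 and ZNF836 shared 81.4%. How the authors' counting treated reads that fit several copies is not stated, and identity was measured on proteins and not on transcripts. The level of each gene of a close pair may therefore be less certain than that of ZNF175. The nearest protein to ZNF175 in the list was 47.6% identical.

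The promoters also resembled each other. RefSeq promoter windows (GRCh38.p14 table, from 250 bases before to 50 bases after the start) were given for 32 of the 38 genes, in 45 windows. The ETS core CCGGAA was found on either strand in 25 of the 32 genes, and in 62.2% of their windows, 42.9% of windows of other ZNF-named genes and 17.2% of all 35116 windows. A longer element around it, ACCCGGAAG, was noticed in the windows themselves and then counted. It was present in 17 of the 32 genes and in 42.2% of their windows, against 3.91% of windows of other ZNF-named genes and 1.07% of all windows. In most of these genes its first base lay 3 to 15 bases into the transcript, so the element sat at the start site. The windows below are shown because they hold this shared letter pattern in genes from both strands and along the array, with the 9 letters of the element in capitals and with GRCh37 coordinates found by exact match.
ZNF841, chr19:52598997-52599026, minus strand: tttcctgcacACCCGGAAGcagatcgcgct
ZNF766, chr19:52772832-52772861, plus strand: ccgcctgcagACCCGGAAGtggatggcgtg
ZNF808, chr19:53030913-53030942, plus strand: attaacgcaaACCCGGAAGcggatcgggtg
ZNF83, chr19:53141587-53141616, minus strand: atgcgcgcaaACCCGGAAGcggattatgtg
ZNF611, chr19:53238276-53238305, minus strand: attaacgcaaACCCGGAAGcggatcgggtg
ZNF816, chr19:53466111-53466140, minus strand: attggcacagACCCGGAAGcggatggcgtg
ZNF160, chr19:53606654-53606683, minus strand: ttgcccacagACCCGGAAGtggatcgtgcg
ZNF845, chr19:53836994-53837023, plus strand: attcgcgcaaACCCGGAAGcggatcgcatg
ZNF765, chr19:53898394-53898423, plus strand: cttcgcgcagACCCGGAAGcggacggcgtg
ZNF813, chr19:53970991-53971020, plus strand: attcgcgaaaACCCGGAAGcggatcgcgtg
The ZNF808 and ZNF611 windows were identical over all 30 bases although the genes lie on opposite strands, while the ZNF841 window differed from them both before and after the element. Of the other motifs searched, the Sp1 box GGGCGG was in 26 of the 32 genes (66.7% of their windows and 45% of all windows). A PAX paired-domain core, GTCACG, was in 7 genes (17.8% of their windows, 8.81% of those of other ZNF-named genes and 9.02% of all windows), and the cyclic AMP response element TGACGTCA was in 0 of 32 (1.85% of all windows). The E-box CACGTG was in 2 genes (7.26% of all windows), the YY1 motif AAGATGGCG in 2 (1.75%) and the NRF1 motif GCATGCGC in 3 (3.05%). A match to these letters is a description of the sequence and not a binding site, and none of the files measured binding.

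The hairpin lowered its target. PAX2 was at 4.03, 3.66 and 2.74 TPM (reads per gene length, scaled to the same total in each library) in shEV and at 0.916, 0.723 and 1.17 TPM in shPAX2, so that the groups did not overlap. The shPAX2 mean was 26.9% of the shEV mean, with a log2 fold change of -1.47 (SE 0.18, adjusted p = 0.000294, limma, Benjamini-Hochberg adjusted across the 13163 genes that passed the filter on low values). The libraries held 10730909 to 18221859 reads assigned to genes in shEV and 19422615 to 29405787 in shPAX2, and the RNA genes RPPH1 and RMRP took 12.7% to 14.2% of all TPM in shEV and 13.3% to 15.6% in shPAX2. The cells are labelled epithelial, but of 8 epithelial markers KRT18 was the one that passed the filter on low values, at 10.2 to 12.9 TPM in shEV and 11.9 to 17.5 TPM in shPAX2, and KRT7 and KRT19 had at most 3 reads in any library. The 4 fibroblast or stromal markers in the table all passed, with a summed level of 870 to 935 TPM in shEV and 665 to 717 TPM in shPAX2. Within that sum 2 genes went opposite ways: COL1A2, a collagen chain, had means of 836 TPM in shEV and 390 TPM in shPAX2 (log2 fold change -1.11, called lower), and ACTA2, smooth muscle actin, had means of 65.1 and 296 TPM (2.16, called higher). The immune markers summed to 0.835 to 1.52 TPM in shEV and 1.58 to 2.28 TPM in shPAX2, nearly all of it CD68, and PTPRC and the endothelial VWF and CDH5 were at or near 0. How far these genes and the depth bear on the zinc finger genes was not tested.

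The array as a whole was lower in every shPAX2 library than in any shEV library. A level that could be tested, meaning at least 0.5 TPM in at least 3 libraries, was reached by 36 of the 37 genes in the table. Their summed level was 797, 776 and 852 TPM in shEV and 591, 593 and 614 TPM in shPAX2. The median gene was at 22.4, 21.3 and 24.7 TPM in shEV and at 17.2, 16.6 and 18.4 TPM in shPAX2. Each of these genes had between 93 and 2385 reads in each library, with a median of 652. Replicates lay close together, the median coefficient of variation being 6.31% in shEV and 5.92% in shPAX2.

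All 36 log2 fold changes were below 0 on the TPM scale, or 34 of them with the median-of-ratios and quantile scalings described below. They lay between -0.85 and -0.09 on the TPM scale with a median of -0.38, and the median over all 13163 genes was -0.10. On that scale 8354 of all 13163 genes were below 0, and 348 of 404 other ZNF-named genes. Because the list was proposed from this comparison, these values describe it and are not tested as a list. At an adjusted p under 0.05, 33 of the 36 were lower and 0 were higher, while 30.5% of all genes tested were lower and 12.2% higher. The shift was modest for each gene: the shPAX2 mean was 53.3% to 92.8% of the shEV mean, with a median of 76%. None of the 36 reached a 2-fold change with that adjusted p, as did 3.11% of all genes in the lower direction and 1.43% in the higher. The 3 shPAX2 libraries lay below all 3 shEV libraries in 34 of the 36 genes, and this was so for 39% of all genes.

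The scale of the values moved these counts. With median-of-ratios size factors the median of all genes shifted from -0.10 to 0.01 and that of the zinc finger genes from -0.38 to -0.27, which kept the distance between them at -0.28. The genes called lower then numbered 24 of 36, where 19.6% of all genes were lower and 21.8% higher, and the 9 that lost the call were ZNF175, ZNF613, ZNF614, ZNF880, ZNF83, ZNF600, ZNF320, ZNF347 and ZNF331. After quantile normalization the median was -0.26, with 22 of 36 called lower, where 18.9% of all genes were lower and 18% higher. ZNF578 and ZNF701, which were not called in any fit, turned to the other side of 0 under both of these scalings, while the other 34 stayed below 0. A set of 22 genes was called lower in the TPM fit and in all 16 alternatives, among them ZNF836, ZNF841, ZNF160, ZNF615, ZNF816 and ZNF480. How many of all genes meet this rule was not counted. In the single fits 18.9% to 31% of all genes were called lower. Fewer reads of these genes per cell and fewer cells that express them cannot be told apart in bulk RNA.

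**Figure D1:**
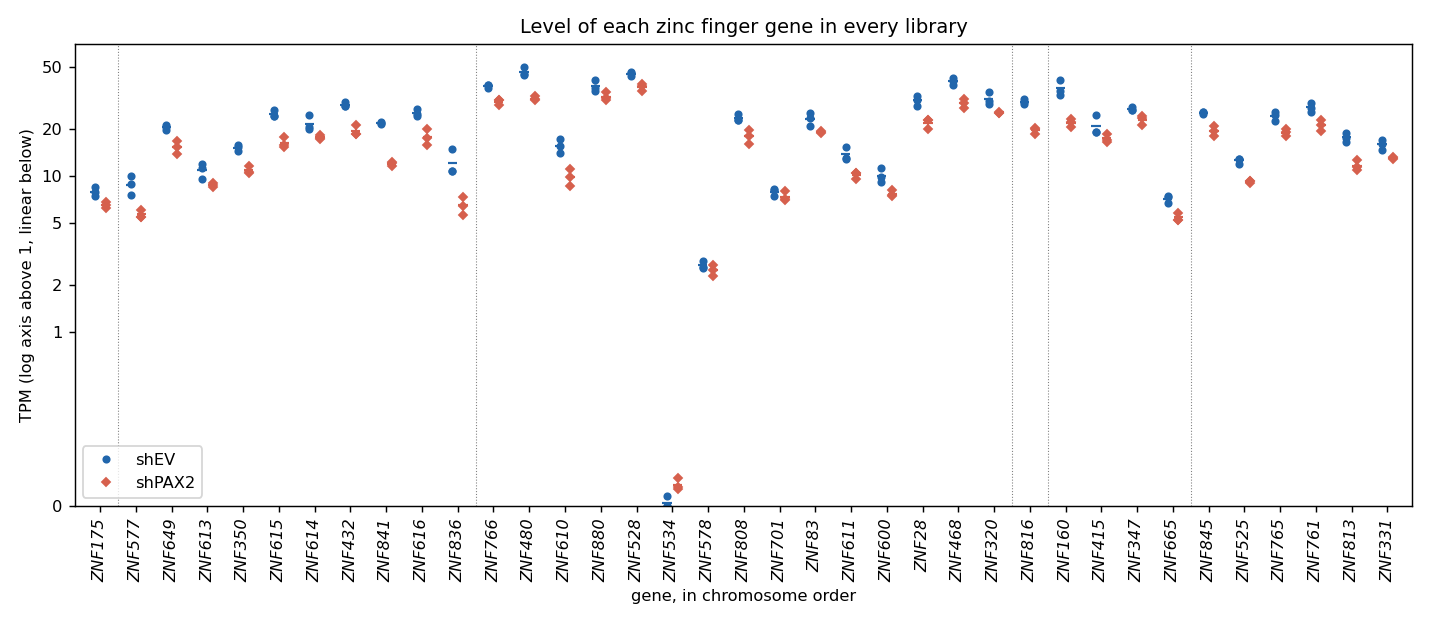
Level of each zinc finger gene in TPM (logarithmic axis above 1, linear below) in the 3 shEV libraries (circles) and the 3 shPAX2 libraries (diamonds), in chromosome order. Short lines are group means and dotted lines mark gaps of over 50 kb between neighbouring genes. The groups overlap in ZNF578 and ZNF701, and ZNF534 is near 0 in every library.

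At the centromeric end, ZNF175 stood alone, more than 50 kb from the next gene of the list. ZNF175 (OTK18), described as a repressor of the HIV long terminal repeat in macrophages, was at 7.87, 7.47 and 8.45 TPM in shEV and 6.78, 6.47 and 6.23 TPM in shPAX2. Its log2 fold change was -0.27 (SE 0.09) and it was called lower, although not with median-of-ratios scaling (-0.16).

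The next stretch, ZNF577 to ZNF836, held 10 genes in chr19:52308069-52674896. Their median log2 fold change was -0.53. All 10 were called lower on the TPM scale, where 30.5% of all genes were. This stretch contained both genes with the lowest values of the list. ZNF836 was at 10.7, 10.8 and 14.9 TPM in shEV and 7.37, 6.39 and 5.66 TPM in shPAX2. ZNF841 was at 21.9, 21.6 and 22.1 TPM in shEV and 11.5, 12.1 and 12.3 TPM in shPAX2. In both genes every shPAX2 library lay well below every shEV library, with log2 fold changes of -0.85 (SE 0.14) for ZNF836 and -0.84 (SE 0.06) for ZNF841. ZNF836 and ZNF841 lie on the minus strand with ZNF616 between them, and encode long proteins of 24 and 20 fingers. ZNF841 overlaps ZNF432 on the same strand.

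ZNF615, a protein of 19 fingers, was at 24.2, 24.3 and 26.3 TPM in shEV and 17.8, 15.3 and 15.8 TPM in shPAX2. ZNF432, which has been described as a sensor of poly(ADP-ribose) at damaged DNA, was at 29.8, 28.1 and 28.1 TPM in shEV and 21.1, 18.5 and 18.5 TPM in shPAX2. ZNF577 was at 7.53, 8.82 and 9.94 TPM in shEV and 6.02, 5.5 and 5.48 TPM in shPAX2. The groups were separate in all 3 genes, and the log2 fold changes were -0.60 (SE 0.08) for ZNF615, -0.56 (SE 0.07) for ZNF432 and -0.58 (SE 0.11) for ZNF577. ZNF616 was at 24.2, 24.9 and 26.7 TPM in shEV and 15.9, 17.6 and 20.1 TPM in shPAX2. ZNF350 (ZBRK1), a partner of BRCA1 that represses GADD45A, was at 15.9, 14.4 and 15.3 TPM in shEV and 10.5, 10.6 and 11.6 TPM in shPAX2. ZNF649, a repressor of serum response element reporters, was at 21.2, 20.6 and 19.8 TPM in shEV and 15.4, 16.7 and 13.8 TPM in shPAX2. These 3 genes had log2 fold changes of -0.49 (SE 0.09) for ZNF616, -0.46 (SE 0.08) for ZNF350 and -0.42 (SE 0.08) for ZNF649, again with no overlap between groups. ZNF577 and ZNF649 overlap on the same strand.

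The smallest shifts of this stretch were in ZNF613 and ZNF614. ZNF613 was at 11.9, 9.6 and 11.2 TPM in shEV and 8.49, 8.97 and 8.74 TPM in shPAX2. ZNF614 was at 19.9, 20.5 and 24.4 TPM in shEV and 17.3, 17.4 and 18.4 TPM in shPAX2. The 2 log2 fold changes were -0.30 (SE 0.09) for ZNF613 and -0.28 (SE 0.08) for ZNF614. Both were called lower on the TPM scale and neither with median-of-ratios or quantile scaling, and ZNF613 lost its call without any 1 of 5 of the libraries.

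The longest stretch, ZNF766 to ZNF320, held 15 genes, of which 14 could be tested, with a median log2 fold change of -0.35. Of the 14, 12 were called lower on the TPM scale, where 30.5% of all genes were. This stretch included the 5 highest mean levels of the list. ZNF480 was at 44.2, 45.2 and 49.9 TPM in shEV and 30.5, 30.9 and 32.3 TPM in shPAX2. ZNF528 was at 45.8, 43.7 and 46.2 TPM in shEV and 37.8, 38.9 and 34.9 TPM in shPAX2. Their shEV means, 46.4 ± 3.03 TPM and 45.2 ± 1.33 TPM (SD, n = 3), did not differ beyond the spread between libraries, and the log2 fold changes were -0.56 (SE 0.06) for ZNF480 and -0.28 (SE 0.06) for ZNF528. ZNF468 was at 42.4, 38 and 40.7 TPM in shEV and 27.3, 29.4 and 31 TPM in shPAX2. ZNF880 was at 36.6, 35.2 and 41 TPM in shEV and 30.6, 31.5 and 34.3 TPM in shPAX2. ZNF766 was at 36.4, 38.5 and 38.4 TPM in shEV and 28.3, 30.7 and 30.6 TPM in shPAX2. These 3 genes followed in the order of shEV level, with means of 40.3 ± 2.23 TPM for ZNF468, 37.8 ± 1.21 TPM for ZNF766 and 37.6 ± 3.02 TPM for ZNF880, which lie within each other's spread. Their log2 fold changes were -0.46 (SE 0.07) for ZNF468, -0.22 (SE 0.07) for ZNF880 and -0.33 (SE 0.06) for ZNF766, and ZNF880 lost its call in 8 of the 16 alternatives.

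ZNF610 was at 14.1, 15.5 and 17.3 TPM in shEV and 9.79, 8.66 and 11.1 TPM in shPAX2. Its log2 fold change, -0.64 (SE 0.11), was the lowest of this stretch. ZNF28, the close copy of ZNF468 with which it overlaps on the same strand, was at 32.4, 28.1 and 30.8 TPM in shEV and 20.1, 22.8 and 22.7 TPM in shPAX2. ZNF320 was at 30.1, 28.9 and 34.3 TPM in shEV and 25.4, 25.7 and 25.4 TPM in shPAX2. The log2 fold changes were -0.47 (SE 0.08) for ZNF28, near that of ZNF468, and -0.28 (SE 0.07) for ZNF320. ZNF808, whose loss in humans causes absence of the pancreas and which binds MER11 elements, was at 22.8, 22.7 and 24.8 TPM in shEV and 18, 16.1 and 19.6 TPM in shPAX2. ZNF611, known to bind SVA retrotransposons, was at 13, 12.9 and 15.3 TPM in shEV and 10.5, 10.5 and 9.59 TPM in shPAX2. ZNF600 was at 11.3, 9.11 and 9.78 TPM in shEV and 7.59, 7.43 and 8.09 TPM in shPAX2. ZNF808, ZNF611 and ZNF600 are related in sequence, and their log2 fold changes were -0.38 (SE 0.08) for ZNF808, -0.41 (SE 0.09) for ZNF611 and -0.36 (SE 0.09) for ZNF600, all called lower.

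ZNF83, the gene with no KRAB A box, was at 23.5, 20.9 and 25.2 TPM in shEV and 18.8, 19 and 19.4 TPM in shPAX2. It was called lower with a log2 fold change of -0.27 (SE 0.08). The genes of this stretch that were not called had low levels. ZNF701 was at 8.22, 7.4 and 8.17 TPM in shEV and 6.99, 7.07 and 8.02 TPM in shPAX2. ZNF578 was at 2.57, 2.87 and 2.61 TPM in shEV and 2.29, 2.69 and 2.49 TPM in shPAX2. In both genes the groups overlapped, and the log2 fold changes were -0.10 (SE 0.09) for ZNF701 and -0.09 (SE 0.12) for ZNF578. ZNF701 lies between ZNF808 and ZNF83, which were called lower, and overlaps ZNF808 on the same strand.

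ZNF534, which has been linked to silencing of HERV-H elements in pluripotent cells, was the one gene in the table that did not pass the filter, and it was far below it, at no more than 0.157 TPM in any library. It had 0, 0 and 1 reads in shEV and 5, 3 and 2 reads in shPAX2. The counts in shEV were under the floor of 3 reads in each library, so no fold change is given. ZNF578, at 2.68 ± 0.163 TPM in shEV (SD, n = 3), was the lowest gene inside the filter.

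ZNF816 and the stretch from ZNF160 to ZNF677 followed. ZNF816 was at 29.6, 29.1 and 31 TPM in shEV and 20.2, 18.7 and 20.1 TPM in shPAX2. ZNF160, described as a repressor of TLR4, was at 32.9, 35.2 and 41.4 TPM in shEV and 23.2, 20.5 and 22.1 TPM in shPAX2. ZNF665, its close copy, was at 7.36, 6.67 and 7.47 TPM in shEV and 5.26, 5.23 and 5.79 TPM in shPAX2. The log2 fold changes were -0.59 (SE 0.06) for ZNF816, -0.72 (SE 0.09) for ZNF160 and -0.37 (SE 0.09) for ZNF665, with no overlap between the groups in any of them. ZNF347 was at 27.8, 26.6 and 26.6 TPM in shEV and 21.2, 23.5 and 24.1 TPM in shPAX2. ZNF415, reported to repress p53 and AP-1 reporters, was at 19.1, 19.1 and 24.6 TPM in shEV and 17.1, 16.5 and 18.6 TPM in shPAX2. Every shPAX2 library of ZNF415 lay below every shEV library, and its log2 fold change of -0.25 (SE 0.10) was not called. It was called in 2 of the 16 alternatives, the replicate block and voom on recovered reads, and the log2 fold change was -0.14 with median-of-ratios scaling, -0.13 with quantile normalization and -0.13 without shEV replicate 3, the highest of its libraries. ZNF347, which overlaps ZNF415 on the same strand, had a log2 fold change of -0.23 (SE 0.07) and was called lower.

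The telomeric end, ZNF845 to ZNF331, held 6 genes on the plus strand, with a median log2 fold change of -0.38. All 6 were called lower on the TPM scale, where 30.5% of all genes were. ZNF845, the gene with the most fingers, was at 25.1, 25.5 and 25.7 TPM in shEV and 19.3, 17.9 and 21 TPM in shPAX2. ZNF525 was at 12, 12.8 and 12.9 TPM in shEV and 8.97, 9.31 and 9.33 TPM in shPAX2. ZNF765 was at 24.4, 22.5 and 25.6 TPM in shEV and 17.9, 19 and 19.9 TPM in shPAX2. The groups were separate in all 3, with log2 fold changes of -0.38 (SE 0.07) for ZNF845, -0.43 (SE 0.07) for ZNF525 and -0.34 (SE 0.07) for ZNF765. ZNF761 was at 27.4, 25.6 and 29.4 TPM in shEV and 19.4, 21.2 and 22.8 TPM in shPAX2. ZNF813 was at 16.6, 17.6 and 18.9 TPM in shEV and 12.7, 10.9 and 11.4 TPM in shPAX2. ZNF331, an imprinted gene that is rearranged in thyroid adenomas, was at 16.1, 14.7 and 17.1 TPM in shEV and 13.3, 13.1 and 12.9 TPM in shPAX2. ZNF813 had the lowest log2 fold change of this end, -0.58 (SE 0.08). The values were -0.37 (SE 0.08) for ZNF761 and -0.27 (SE 0.07) for ZNF331, which was not called with median-of-ratios or quantile scaling.

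**Figure D2:**
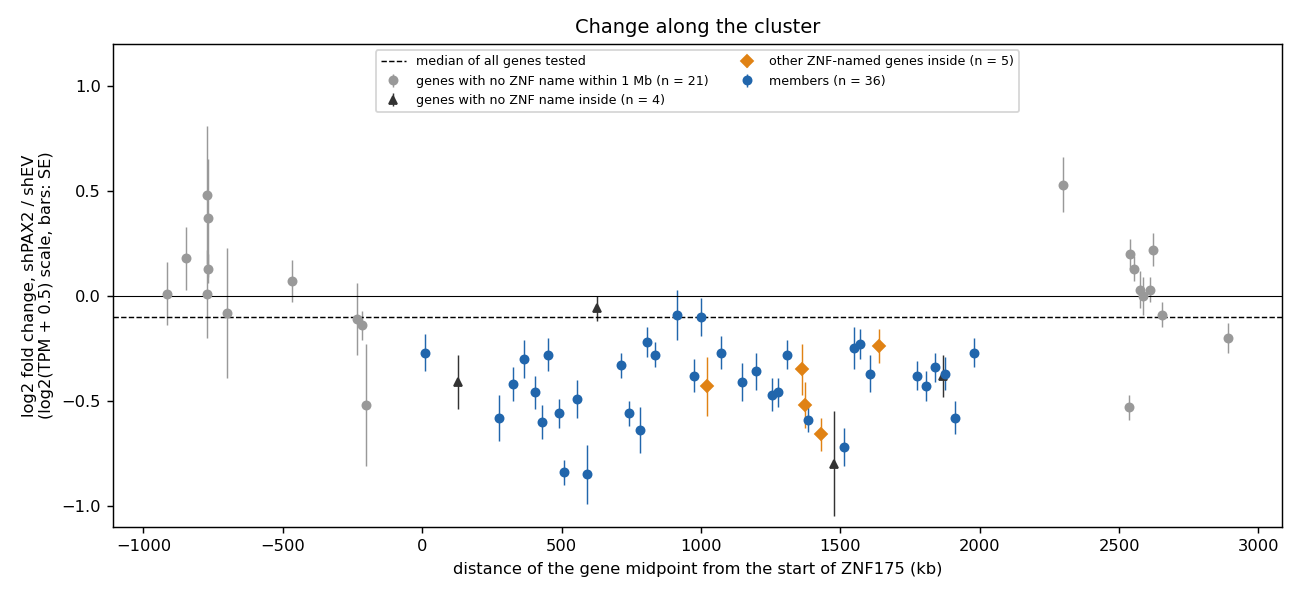
Log2 fold change of shPAX2 against shEV on the log2(TPM + 0.5) scale, with SE bars, by distance of each gene's midpoint from the start of ZNF175 in kb. Blue circles are the zinc finger genes of the list, orange diamonds other ZNF-named genes inside the array, black triangles genes with no ZNF name inside it, and grey circles those within 1 Mb of it. The 36 zinc finger genes lie below 0 (34 with the other scalings), and 21 of 22 genes with no ZNF name in the flanks are spread around 0; TTYH1 (-3.61) and the microRNA gene MIR643, which was at 0 in 3 libraries, are not drawn.

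The order of levels was kept: the rank correlation of shEV and shPAX2 means over the 36 genes was 0.976, given as a description of genes that share libraries. The size of the shift had little relation to level (Spearman's rho with mean TPM -0.06, over the same 36 genes). On the TPM scale, where 30.5% of all genes were called lower, all 18 genes at 20 TPM or more were called lower. So were 9 of 10 between 10 and 20 TPM and 6 of 8 below. With median-of-ratios scaling ZNF880, ZNF83, ZNF320 and ZNF347, all at 20 TPM or more, lost the call. The median log2 fold change was -0.46 on the minus strand (20 genes) and -0.34 on the plus strand (16 genes). It was -0.44 for proteins of 16 fingers or more, -0.28 for 11 to 15 and -0.43 for 10 or fewer. Genes with the ACCCGGAAG element had a median of -0.38 (15 tested) and genes with a window and no such element -0.37 (15 tested). The 13 genes with a protein at least 80% identical to another had a median of -0.41 and the other 23 a median of -0.30. Genes that overlap another listed gene on the same strand (15) had a median of -0.42 and the rest (21) of -0.37. None of these differences was tested.

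Other zinc finger genes were called lower more or less often depending on the scale. Over the 404 other ZNF-named genes tested, the median log2 fold change was -0.24 and 50.5% were called lower on the TPM scale. The share was 26.5% with median-of-ratios scaling and 21% with quantile normalization, where 19.6% and 18.9% of all genes were lower. The values for subgroups are on the TPM scale. Those with a KRAB A box had a median of -0.27 on chromosome 19 (145 genes, 57.9% called lower) and -0.25 on other chromosomes (88 genes, 54.5%). ZNF-named genes with a protein and no KRAB A box had a median of -0.17 (156 genes, 40.4%). Relative to the median of all genes, the zinc finger genes of the array stood at -0.28 and the other ZNF-named genes at -0.14, with median-of-ratios scaling at -0.28 and -0.14, and with quantile normalization at -0.27 and -0.09. The difference between the array and the other ZNF-named genes was not tested.

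The 5 tested genes of other kinds inside the array had values below 0 on the TPM scale, as had 8354 of all 13163 genes. Not all of the 5 were called. Genes of other kinds around the array were spread about 0. Over 730 genes of chromosome 19 with no ZNF name the median was -0.07, and over 22 such genes within 1 Mb on either side of the array it was 0.02. Inside the array 5 such genes were tested, and 3 of the 5 were called lower on the TPM scale, where 30.5% of all genes were. Their median of -0.38 is the value of TPM3P9, which is not independent of the zinc finger genes because it overlaps ZNF761. PPP2R1A, the scaffold subunit of protein phosphatase 2A, had mean levels (± SD, n = 3) of 204 ± 6.05 TPM in shEV and 195 ± 12.5 TPM in shPAX2. Its log2 fold change of -0.06 (SE 0.06), which is 0.04 relative to the median of all genes, was not called, although ZNF836, which overlaps it on the opposite strand, had the lowest value of the list. TPM3P9, a tropomyosin pseudogene that overlaps ZNF761 on the same strand, was called lower at -0.38 (SE 0.10). LINC00085, with 36 to 73 reads per library, was called lower at -0.41 (SE 0.13). The other 2 of the 5, named after their values were seen, were ERVV-2 (-0.80, called lower, 8 to 22 reads per library) and the microRNA gene MIR643 (-0.11, SE 1.36, not called). MIR643 overlaps ZNF766 on the same strand and had 0, 0 and 6 reads in shEV and 2, 0 and 1 reads in shPAX2.

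**Figure D3:**
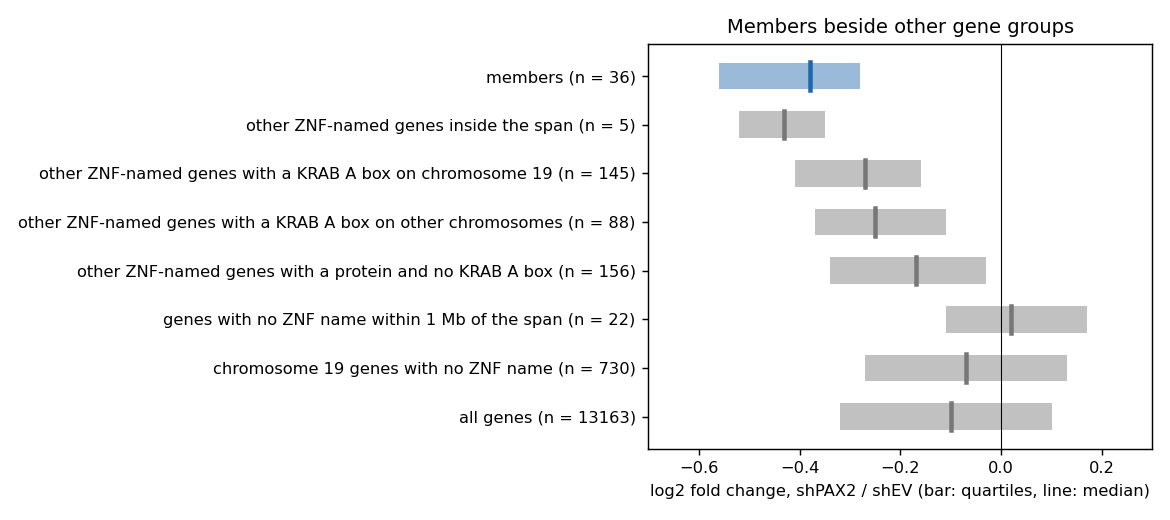
Median (line) and quartiles (bar) of the log2 fold change of shPAX2 against shEV, on the log2(TPM + 0.5) scale, for the zinc finger genes of the array and 7 other groups. The array has a median of -0.38, other KRAB zinc finger genes of chromosome 19 of -0.27, and all genes of -0.10.

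The corepressor genes through which KRAB proteins act were called at shares near those of all genes on the TPM scale. Of 25 genes for such cofactors and for writers and readers of H3K9 methylation, 9 were called lower (36%, against 30.5% of all genes) and 3 higher (12%, against 12.2%), with a median log2 fold change of -0.02 and none at 2-fold. With median-of-ratios scaling 6 were called lower and 9 higher, where 19.6% of all genes were lower and 21.8% higher. TRIM28, the corepressor bound by the KRAB domain, had mean levels (± SD, n = 3) of 232 ± 12.8 TPM in shEV and 297 ± 21.5 TPM in shPAX2. It was called higher, with a log2 fold change of 0.36 (SE 0.07). The other 2 called higher, named here after their values were seen, were HDAC2 (0.77), a histone deacetylase, and DAXX (0.69), a histone H3.3 chaperone. SETDB1, the methyltransferase recruited by TRIM28, was at 27.2 ± 2.28 TPM in shEV and 21.5 ± 0.239 TPM in shPAX2 and was called lower, with a log2 fold change of -0.33 (SE 0.07). ZNF274, a KRAB zinc finger protein that binds zinc finger genes themselves and brings H3K9 methylation to them, was at 11.9 ± 0.474 TPM and 11.7 ± 0.437 TPM, with a log2 fold change of -0.02 (SE 0.07) that was not called.

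**Figure D4:**
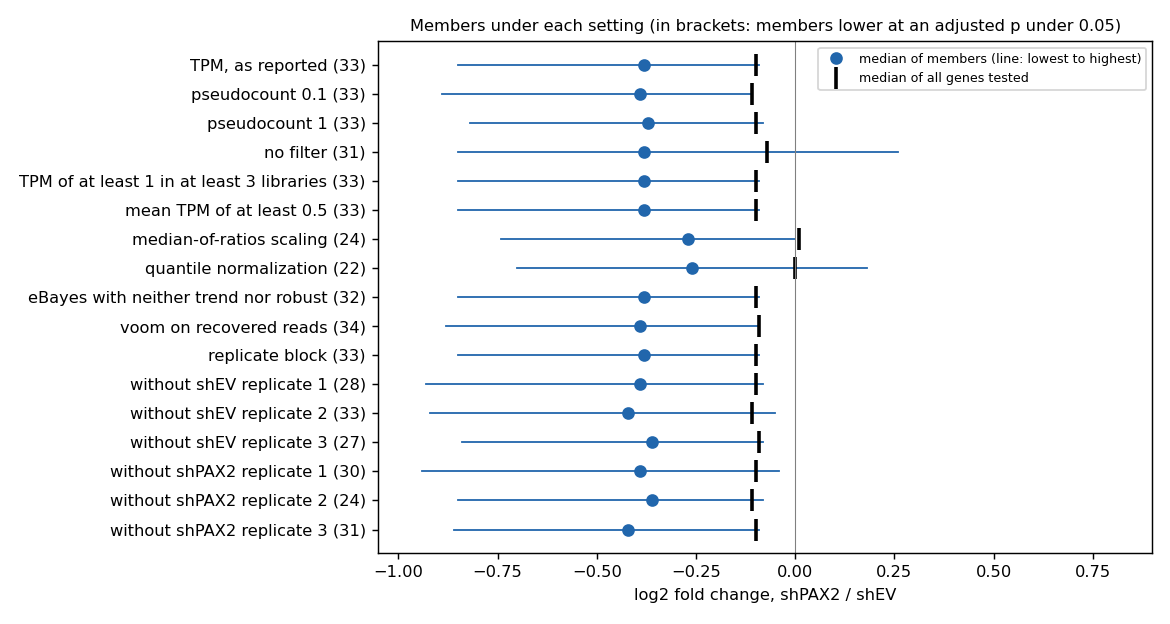
Log2 fold changes of the zinc finger genes (point: median, line: lowest to highest) and median of all genes tested (tick) under the TPM fit and 16 alternatives, with the number called lower in brackets. The median of the zinc finger genes lies between -0.42 and -0.26 and below that of all genes in each.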

How the data were processed

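RNA-seq libraries of AN3CA cells (3 shEV, 3 shPAX2, grouped by their titles) were made from total RNA with a stranded kit. The deposited values are TPM per gene, made by the authors. Their processing notes name STAR, featureCounts and hg19, but not versions, strand setting or the annotation used to compute lengths, and the published methods describe another cell line. TPM sum to the same total in each library, so a change in a few abundant genes shifts all others. Whole reads were recovered from the ratios of TPM between libraries for 100% of the 17471 genes, up to 1 factor per gene (largest relative deviation 7.15e-14), which gives 10730909 to 29405787 reads per library; depth intervals cover counting error only. Replicates differed by more than sampling noise, with a chi-square per degree of freedom of 3.2 to 5.5 within shEV. Within shPAX2 it was 3.84 between replicates 2 and 3. It was 12.5 and 15.5 between shPAX2 replicate 1 and these, so that library stood apart from its group.

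The test was limma 3.58.1 (R 4.3.3, trend and robust moderation, two-sided) on log2(TPM + 0.5), for genes with at least 0.5 TPM in at least 3 libraries, with Benjamini-Hochberg adjustment over all genes tested; fold changes on this scale understate changes of low genes. It was tested on simulated data with changes of 2-fold or more, which says little of shifts as small as those of the array. Alternatives were other pseudocounts (0.1 and 1), filters, scalings, moderation, voom on recovered reads, a replicate block, and each library left out. Same-numbered libraries did not deviate together, so the numbers were not taken as pairs. Gene positions and proteins came from GENCODE 44 on GRCh37 (94.7% of symbols matched), and a KRAB A box was called at 20 or more identities to a 40-position consensus. Motif windows came from RefSeq. The named genes are all members, with values in each library for those of the lowest and highest change or level and those called above 5 TPM, PAX2, 3 cofactors and the 3 most abundant genes of other kinds inside the array. Members and lists were chosen with earlier results of these data known.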

Additional observations from a re-analysis of the deposited data

How the results depend on the processing

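The direction was below 0 for all 36 zinc finger genes of the main test under every alternative on the TPM or read scale. With no filter ZNF534 was tested as well and lay above 0 (0.26). With median-of-ratios or quantile scaling 34 of the 36 were below 0. There ZNF578 (0.00 and 0.18) and ZNF701 (0.00 and 0.11) reversed without being called. Between 22 and 34 of the zinc finger genes were called lower over the 16 alternatives, where 18.9% to 31% of all genes were. The smallest counts were 22 at quantile normalization, and 24 each at median-of-ratios scaling and without shPAX2 replicate 2. The shares of all genes called lower were 18.9%, 19.6% and 22% in these 3 fits. With no filter, 1 was called higher, ZNF534, at 0 to 5 reads, where 8.72% of all genes were higher. The replicate block left 33 called lower, where 27.5% of all genes were, with ZNF175 losing and ZNF415 gaining the call. Correlations of deviations by number were -0.0523, 0.0815 and 0.0014, so the numbers do not pair the libraries. Median-of-ratios and quantile scaling gave medians of -0.27 and -0.26 for the array, 0.01 and 0.00 for all genes (-0.07 with no filter), and -0.13 and -0.08 for other ZNF-named genes, which were -0.23 with pseudocount 1 or voom, -0.22 with no filter and -0.25 to -0.21 with a library left out. All genes called lower numbered 2579 and 2489 under these scalings, and 2867 were called higher with median-of-ratios scaling, with 975 (without shPAX2 replicate 2) to 1803 (without shPAX2 replicate 1) when a library was left out. Past 2-fold, 100 to 198 were higher with a library left out, 100 without shPAX2 replicate 2 and 104 without shPAX2 replicate 3. Cofactors called higher numbered 9 with median-of-ratios scaling, 6 with quantile scaling, 6 with voom and 3 to 5 with a library left out, 5 without shPAX2 replicate 1. The causes were not tested.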

Other observations

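Other genes named for zinc fingers inside the array, mostly pseudogenes or read-through genes, were also lower. ZNF702P had mean levels (± SD, n = 3) of 29.8 ± 1.91 TPM in shEV and 18.7 ± 1.4 TPM in shPAX2, with a log2 fold change of -0.66 (SE 0.08). All 5 such genes were called lower on the TPM scale, where 30.5% of all genes were. The others were ZNF816-ZNF321P (-0.52), ZNF137P (-0.43), ZNF321P (-0.35) and ZNF818P (-0.24). ZNF816-ZNF321P shares its strand and sequence with ZNF816, so their reads cannot be told apart with certainty. ERVV-2, an envelope gene of an endogenous retrovirus that lies among them, was at 1.08 ± 0.498 TPM in shEV and 0.389 ± 0.165 TPM in shPAX2 and was called lower (-0.80, SE 0.25).

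The 6 other groups of ZNF-named genes on chromosome 19 with at least 14 genes tested, split at gaps of over 1 Mb, had medians between -0.35 and -0.16. The medians and counts for these groups are on the TPM scale, where 30.5% of all genes were called lower and 12.2% higher. From ZNF653 to ZNF791, 22 of 27 genes tested were called lower, with a median of -0.31. From ZNF575 to ZNF296, 13 of 18 were called lower (median -0.35). From ZNF557 to ZNF846, 10 of 14 were called lower (median -0.25), and from ZNF565 to ZNF573, 13 of 25 (median -0.27). From ZNF101 to ZNF254, 11 of 24 were called lower and 1 higher (median -0.20). From ZNF628 to ZNF446 at the telomere, 17 of 51 were called lower (33.3%, near the share of all genes) and 1 higher (median -0.16). Differences between these groups were not tested. Within 1 Mb of the telomeric end of the array, but not next to it, lies TTYH1 (chr19:54926393-54948084), a chloride channel-like membrane protein gene. TTYH1 was at 6.54 ± 0.524 TPM in shEV and 0.0781 ± 0.072 TPM in shPAX2, with a log2 fold change of -3.61 (SE 0.15). It had 1, 1 and 3 reads in the shPAX2 libraries, at or under the floor of 3 reads, so the size of this change depends on the pseudocount.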
